A study of Danio rerio with 7 samples.

Results

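The embryonic globin probes were 6 of the 43663 probes of a zebrafish array on which tbx5 morphant embryos were compared with WT embryos at 24, 30 and 48 hours post-fertilization (hpf). They were taken from the lists that the study deposited for each stage, which hold the probes at least 1.5-fold lower in the morphants on every array of the stage. A probe was taken when its gene symbol, or the current symbol behind its Entrez number, began with hbae, hbaa, hbbe or hbba, and it was then placed on the one row of the value table with the same values. All 6 were placed, 3 of them for the alpha genes hbae1.1 and hbae3 and 3 for the beta genes hbbe2 and hbbe3, which makes 4 of the 3794 genes named through the lists. The 24 hpf list held the 3 alpha probes, the 30 hpf list held all 6, and the 48 hpf list held 0. The values that chose a probe are therefore its own ratios at 24 and 30 hpf for alpha and at 30 hpf for beta, and these are given as a description with no test. The table of reference genes held 15 globin genes with such symbols, of which 11 were not named through the lists and were not analysed here.

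Hemoglobin carries oxygen in red cells and is built from paired alpha-type and beta-type chains, each holding a heme group with iron. In zebrafish the first circulating red cells are primitive erythrocytes, which use embryonic globin genes before adult globin genes take over in later life. Zebrafish alpha and beta globin genes lie side by side in a major locus on chromosome 3 and a minor locus on chromosome 12, so that genes of both chain types are interleaved at each. tbx5 is a T-box transcription factor known for its role in the heart and the pectoral fins or forelimbs.

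Each array carried RNA of whole AB strain embryos injected with a tbx5 morpholino (tbx5-MO), labelled with Cy5, beside RNA of whole AB strain WT embryos of the same stage, labelled with Cy3. The first 2 stages had 2 arrays each and 48 hpf had 3. The morpholino was designed against the translation start of tbx5, so it blocks translation and the tbx5 transcript would be no check of it. The WT channel is labelled only as a wild-type control and no array had the dyes the other way round, so effects of the dye, of the injection and of the knockdown cannot be told apart. Whether separate clutches stand behind the arrays of one stage is not stated, so the p-values refer to array-to-array spread alone, part of which may be technical.

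All values are log2 ratios of morphant over WT, so that a value above 0 is a higher level in the morphants. The array medians lay between -0.03 and 0.01 and the standard deviations over probes between 0.77 and 1.49. On an array, 11.4% to 67.3% of the values were found in more than 10 probes, which was read from the values as a mark of dim spots, and 10.2% to 27.0% were found once. Over the 1972 probes whose value was unique on each of the 7 arrays, the arrays had a correlation across probes of 0.20 for 24 hpf, 0.69 for 30 hpf and 0.69 to 0.71 for 48 hpf, so the 24 hpf arrays were the least alike. Over all 43663 probes, on which the tests were fitted, the correlations were only 0.07 for 24 hpf, 0.10 for 30 hpf and 0.07 to 0.14 for 48 hpf. The level of a globin against other genes was not measured, since the files used here give ratios and no intensities.

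hbae1.1, an embryonic alpha globin listed under the older symbol hbae1 (Entrez 30597), was measured by probe A_15_P111458, placed by the list at chr3:52920953-52921012 on a build that is not given. Its globin neighbours in the reference table were hbbe1.1 and hbbe1.2. hbae3 (Entrez 30601), another embryonic alpha globin on chromosome 3, next to hbae1.3, had the probes A_15_P206756 and A_15_P212056, for which the list gave no position. hbbe2 (Entrez 405772), an embryonic beta globin between hbbe3 and hbae5, was measured by probe A_15_P193031 at chr12:14781019-14781078. hbbe3 (Entrez 30596), an embryonic beta globin between hbae4 and hbbe2, had the probes A_15_P106583 at chr12:14791459-14791518 and A_15_P211801 at chr12:14791470-14791529. The last pair share 49 of their 60 bases, so they are not separate measurements of the gene. Both alpha genes thus lay on chromosome 3 and both beta genes on chromosome 12, and chain type and locus cannot be told apart over these members. The embryonic globins have closely related copies, and whether a probe also bound the transcripts of a neighbour was not tested.

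The alpha globin probes were below 0 on all arrays at 24 and 30 hpf and above 0 on all arrays at 48 hpf. hbae1.1 had log2 ratios of -1.251 and -0.874 on the 24 hpf arrays, -2.09 and -2.40 on the 30 hpf arrays, and 1.19, 1.31 and 1.43 on the 48 hpf arrays. The lowest ratios were those at 30 hpf, and no 48 hpf value came near those of the earlier stages. Its means were -1.06 ± 0.27 at 24 hpf (SD, n = 2), -2.24 ± 0.22 at 30 hpf (SD, n = 2) and 1.31 ± 0.12 at 48 hpf (SD, n = 3), the last a level 2.48-fold higher in the morphants than in WT embryos. In RNA of whole embryos, fewer red cells and less globin RNA per red cell cannot be told apart.

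The hbae3 probes had the same order of stages. Probe A_15_P206756 had -2.01 and -1.55 on the 24 hpf arrays, -2.04 and -2.62 on the 30 hpf arrays, and 1.33, 1.48 and 1.82 on the 48 hpf arrays. Probe A_15_P212056 had -1.05 and -1.13 on the 24 hpf arrays, -1.67 and -1.78 on the 30 hpf arrays, and 1.77, 1.75 and 2.31 on the 48 hpf arrays. The second probe gave the higher ratio on every array, by 0.26 to 0.95, while both had the same sign on each. The means of A_15_P206756 were -1.78 ± 0.32, -2.33 ± 0.41 and 1.55 ± 0.25 at 24, 30 and 48 hpf, and those of A_15_P212056 were -1.09 ± 0.05, -1.73 ± 0.08 and 1.94 ± 0.32 (SD, n = 2, 2 and 3). At 48 hpf the second was 3.84-fold higher in the morphants, the highest value of any globin probe placed. For A_15_P206756 the 24 and 30 hpf arrays came close without overlapping, with -2.01 at 24 hpf beside -2.04 at 30 hpf.

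**Figure D1:**
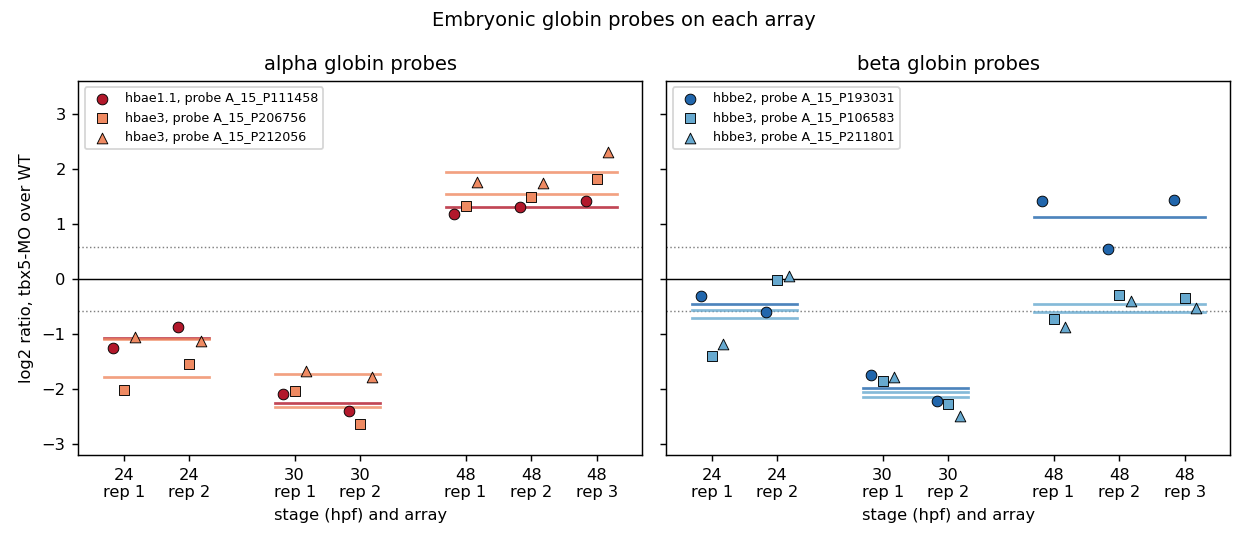
Log2 ratio of tbx5-MO over WT (vertical axis) for each globin probe on each of the 7 arrays, grouped by stage in hpf (horizontal axis), with the alpha probes on the left and the beta probes on the right. Points are single arrays, horizontal bars are stage means, and dotted lines mark 1.5-fold. The alpha probes lie between 1.19 and 2.31 at 48 hpf, hbbe2 between 0.54 and 1.43, and hbbe3 between -0.87 and -0.28.

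The beta globin genes had ratios like those of alpha at 30 hpf and differed from each other at 48 hpf. hbbe2 had log2 ratios of -0.31 and -0.60 on the 24 hpf arrays, -1.75 and -2.21 on the 30 hpf arrays, and 1.41, 0.54 and 1.43 on the 48 hpf arrays. It was above 0 on every 48 hpf array, as the alpha probes were, but replicate 2 lay well under the other arrays. Its 24 hpf values were shared with up to 21 probes of an array, the mark taken for a dim spot. Its means were -0.46 ± 0.20 at 24 hpf, -1.98 ± 0.33 at 30 hpf and 1.13 ± 0.51 at 48 hpf (SD, n = 2, 2 and 3).

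hbbe3 had no 48 hpf value above 0 with either probe. Probe A_15_P106583 had -1.39 and -0.02 on the 24 hpf arrays, -1.86 and -2.26 on the 30 hpf arrays, and -0.72, -0.28 and -0.35 on the 48 hpf arrays. Probe A_15_P211801 had -1.18 and 0.06 on the 24 hpf arrays, -1.78 and -2.49 on the 30 hpf arrays, and -0.87, -0.39 and -0.53 on the 48 hpf arrays. The 24 hpf arrays thus disagreed for this gene, low on replicate 1 and at about 0 on replicate 2, and the overlapping probes stayed within 0.07 to 0.23 of each other on every array. The 24 hpf means were -0.70 ± 0.97 and -0.56 ± 0.87 (SD, n = 2), and the second is 0.06 without replicate 1. At 30 hpf the means were -2.06 ± 0.28 and -2.13 ± 0.51 (SD, n = 2), and at 48 hpf they were -0.45 ± 0.24 and -0.60 ± 0.25 (SD, n = 3).

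At 24 hpf, where the beta probes had not been chosen, 0 of the 3 passed limma's test over all probes, against 0.0321% of the 43663 probes (adjusted p = 0.689 for hbbe2 and 0.548 and 0.648 for hbbe3). The 1.5-fold limit on every array chose the alpha probes at this stage, with hbae1.1 the nearest inside it at -0.87 on replicate 2. Of the probes outside it, hbbe2 was the nearest, past the limit on replicate 2 at -0.60 but not on replicate 1 at -0.31. Among all probes 7.71% were at least 1.5-fold lower on both arrays, and 6.75% were so at 30 hpf. On replicate 1 alone 5 of the 6 globin probes were past that limit, the 3 alpha probes by choice, against 25.4% of all probes. The difference between 48 and 24 hpf, tested for the beta probes alone, was 1.59 ± 0.50 for hbbe2 (SE, adjusted p = 0.599 in limma), 0.25 ± 0.55 for A_15_P106583 (adjusted p = 0.909) and -0.04 ± 0.55 for A_15_P211801 (adjusted p = 0.988), against 0.00229% of all probes called.

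Within single arrays, alpha stood above beta at 48 hpf. At 24 hpf the alpha probes had been chosen for low values and the beta probes had not passed that limit, and at 30 hpf all 6 had been chosen. The choice thus bears on the order of alpha and beta at those stages without fixing it, and the values there are only a description. Chain type and list membership cannot be told apart at 48 hpf either. There the probes in the 24 and 30 hpf lists only, as alpha, had a median of 0.12. Those in the 30 hpf list only, as beta, had a median of 0.04. Among probes with no value found in more than 10 probes of an array, these medians were 0.24 and -0.12. With each gene's probes averaged and then the 2 genes of a chain type, alpha minus beta was -0.59 and -0.82 on the 24 hpf arrays, -0.19 and -0.01 on the 30 hpf arrays, and 1.06 to 1.36 on the 3 arrays of 48 hpf. The 48 hpf mean was 1.22 ± 0.15 (SD, n = 3), positive on 3 of 3 arrays. An exact two-sided sign-flip test gave p = 0.25, which is the smallest that 3 arrays can give. The chain types were not uniform, however, and the 48 hpf difference was mainly one between hbbe3 and the rest. The alpha genes exceeded hbbe3 by 2.17, 1.80 and 2.19 on the 48 hpf arrays, while against hbbe2 the difference was -0.04, 0.92 and 0.31. hbbe2 itself exceeded hbbe3 by 2.21, 0.88 and 1.87, although their genes are neighbours on chromosome 12. These last differences between genes were chosen after their values were seen and are given with no test.

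**Figure D2:**
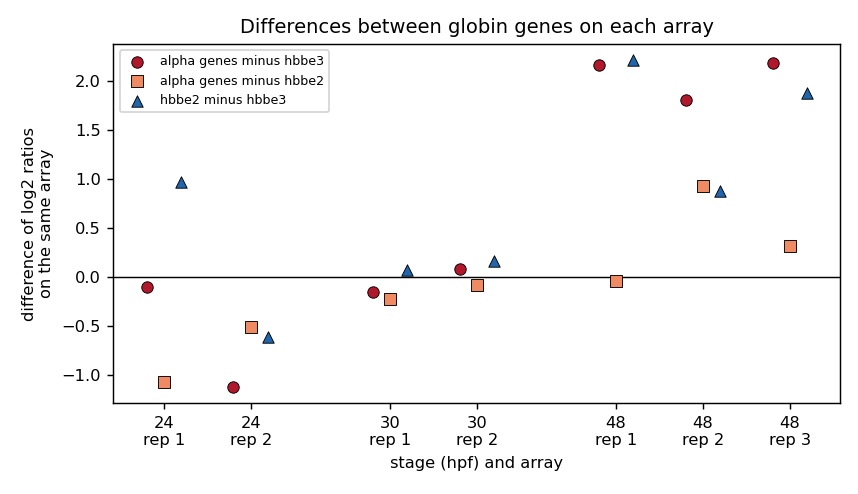
Difference of log2 ratios on the same array (vertical axis) between globin genes, for the 7 arrays grouped by stage in hpf (horizontal axis). At 48 hpf the alpha genes minus hbbe3 lie between 1.80 and 2.19 and hbbe2 minus hbbe3 between 0.88 and 2.21, while the alpha genes minus hbbe2 lie between -0.04 and 0.92. At 30 hpf all 3 differences lie within 0.23 of 0.

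At 48 hpf, where no globin probe had been chosen, all 3 alpha probes were at least 1.5-fold higher in the morphants on every array, against 1.97% of all probes. Of the 6 globin probes, 4 were above 0 on every 48 hpf array, which 16.8% of all probes were, and 2 were below 0 on every array, which 18.1% of all probes were. Tested by limma over all 43663 probes, 0 of the 6 passed, as did 0 probes of any kind (0.0%), while 2548 probes (5.84%) had an unadjusted p under 0.05. The means and standard errors were 1.31 ± 0.28 for hbae1.1 (adjusted p = 0.736), 1.55 ± 0.30 and 1.94 ± 0.28 for hbae3 (adjusted p = 0.669 and 0.529) and 1.13 ± 0.32 for hbbe2 (adjusted p = 0.814). For hbbe3 they were -0.45 ± 0.35 and -0.60 ± 0.35 (adjusted p = 0.881 and 0.836).

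The calls differed between fits with different limits on shared values, the mark taken for dim spots. With the 6963 probes that shared each value with few others (at most 10 probes per value on any array), the 3 alpha probes were called higher in the morphants at 48 hpf (adjusted p = 0.042 for hbae1.1 and 0.033 and 0.024 for hbae3 in limma), against 0.589% of those probes, and hbbe3 was not (adjusted p = 0.442 and 0.310). hbbe2 was not in that fit. With the 4646 probes that had a unique value on each 48 hpf array, fitted on that stage alone, the 3 alpha probes and hbbe2 were called higher, against 12.8%, and 1 of the hbbe3 probes was called lower, against 15.7%. That fit changed both the probes and the arrays, and the hbbe2 and hbbe3 calls were made in it alone. hbbe2 was in it because only the 48 hpf arrays, where it was high, had to have unique values. Its 24 hpf values were shared with up to 21 probes. The adjusted p-values in that limma fit were 0.00193 for hbae1.1, 0.00137 and 0.000733 for hbae3, 0.00846 for hbbe2, and 0.104 and 0.0462 for hbbe3. Both limits were chosen with earlier results of these data known.

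The globins at 48 hpf are set beside the probes with the same list membership. Of the 152 probes under the limit of 10 that, like the alpha probes, were in the 24 and 30 hpf lists only, 26.3% were at least 1.5-fold higher on every 48 hpf array and 51.3% were above 0 on every one, with a median of 0.24. Over all 336 probes of that membership, with no limit on shared values, these were 14.3% and 36.0%, with a median of 0.12. From the highest mean, hbae3 ranked 7th and 20th and hbae1.1 ranked 27th of the 152. Of the 446 such probes that, like the beta probes, were in the 30 hpf list only, 24.9% were above 0 on every 48 hpf array and 33.0% below, with a median of -0.12. Over all 2511 probes of that membership 21.5% were above and 17.4% below, with a median of 0.04. hbbe2 did not pass that limit, as its values were shared with up to 21 probes. Added to the 446 all the same, it ranked 43rd of 447, while the hbbe3 probes ranked 339th and 383rd of 446. The rank of hbbe2 among all 2511 is not given here. The alpha globins and hbbe2 thus lay in the upper part of the probes ranked, and hbbe3 in the lower part.

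**Figure D3:**
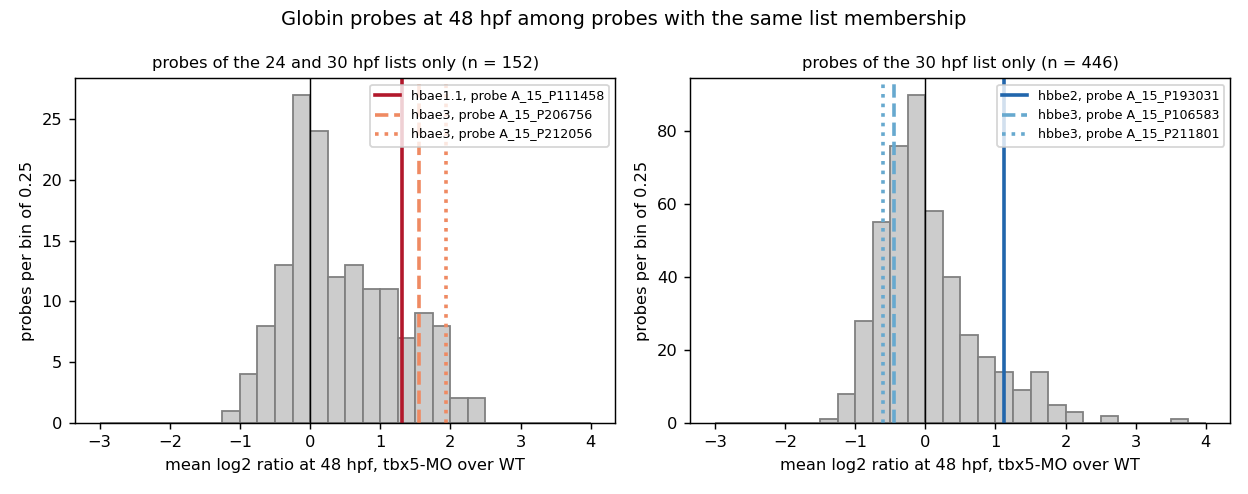
Number of probes (vertical axis, bins of 0.25) by mean log2 ratio at 48 hpf, tbx5-MO over WT (horizontal axis), for the 152 probes of the 24 and 30 hpf lists only (left) and the 446 of the 30 hpf list only (right), all under the limit of 10 probes per value. Vertical coloured lines are the globin probes with that membership, from 1.31 to 1.94 for alpha on the left and from -0.60 to 1.13 for beta on the right. hbbe2, at 1.13, did not pass the limit and is drawn as a line only.

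The array names begin with 1 of 2 numbers, which were read as a batch. One batch held 24 hpf replicate 1 and both 30 hpf arrays, and the other held 24 hpf replicate 2 and all 3 of the 48 hpf arrays, so 30 and 48 hpf shared no batch. Within the second batch, 48 minus 24 hpf was 2.18 for hbae1.1, 3.10 and 3.07 for hbae3, 1.73 for hbbe2, and -0.43 and -0.65 for hbbe3. Within the first, 30 minus 24 hpf was -0.99 for hbae1.1, -0.32 and -0.67 for hbae3, -1.66 for hbbe2, and -0.67 and -0.96 for hbbe3. The order of the stages within a batch was the one seen over all arrays for alpha and hbbe2. For hbbe3 probe A_15_P106583 the 48 minus 24 hpf difference was 0.25 over all arrays. Each within-batch difference rests on 1 array of 24 hpf. The choice of probes also fixed low values at 24 hpf for alpha and at 30 hpf for all globin probes. The within-batch values are therefore only a description, and whether the order depends on the batch was not tested. With the batch as a block in limma, the 48 hpf means of hbbe3 were -1.14 and -1.21, while the other globin probes had means of 1.12 to 1.98. No globin probe passed there (adjusted p = 0.110 to 0.343), while 560 of all 43663 probes were called at 48 hpf. The block was estimated from the 24 hpf arrays alone, the only stage found in both batches. For hbbe3 these arrays disagreed (-1.39 and -0.02 with A_15_P106583, -1.18 and 0.06 with A_15_P211801). The lower 48 hpf means of hbbe3 in this fit carry over that gap.

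Other genes of the red cell were read from 3 lists. As probes were named only where some stage's list held them, each list is described at a stage over probes named through another stage's list, some of which were also in that stage's own list, which fixes their low values. Over all probes so named, the medians were -0.15 at 24 hpf (3763 probes), -0.09 at 30 hpf (4151) and -0.02 at 48 hpf (5898), or -0.056, -0.015 and -0.0078 without the probes of the stage's own list. At these stages 41.0%, 44.4% and 47.8% of all probes so named were above 0. Without the probes of the stage's own list, 53.7%, 50.8% and 50.9% were below 0. Of the 41 genes of heme synthesis and iron supply, 10 were named, and their probes were mostly below 0 at every stage. At 24 hpf 0 of 7 probes were above 0 (median -0.86), at 30 hpf 2 of 7 (median -0.46, or -0.01 without replicate 2), and at 48 hpf 2 of 9 (median -0.58). The stage's own list held 1 of the 7 at 24 hpf and 1 of the 9 at 48 hpf, and without them the medians were -0.85 and -0.58. No probe of any list passed limma's test, against 0.0321%, 0.00687% and 0.0% of all probes at 24, 30 and 48 hpf.

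The genes of heme synthesis did not show the high 48 hpf values of the alpha globins. urod, an enzyme of the heme pathway chosen at 24 hpf, had -1.14, -1.03 and 0.17 at 48 hpf, on both sides of 0. hmbsb, a hydroxymethylbilane synthase of the same pathway, was chosen at 48 hpf and had -1.79 and 0.13 at 24 hpf, so its 24 hpf arrays disagreed. tfa, the iron carrier transferrin, had -0.47 and -1.58 at 24 hpf, both below 0. fthl27, a ferritin-like iron storage gene, had 0.61 and -4.19 at 24 hpf, and slc11a2, an iron transporter, had -0.01 and 1.49 at 30 hpf. None of these passed the test (adjusted p = 0.387 to 0.834 in limma).

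Of the 42 genes of the red cell membrane and its enzymes, 17 were named. Their median was -0.63 at 24 hpf, with 12 of 15 probes below 0, and -0.83 at 30 hpf, with 9 of 11 below 0, while at 48 hpf it was 0.01, with 11 of 21 above 0. Of these probes, 5 at 24 hpf and 5 at 30 hpf (3 of slc4a1a, aqp3a and tmod4) were in the stage's own list. Without them the median was -0.23 at 24 hpf, with 7 of 10 below 0, and -0.41 at 30 hpf, with 4 of 6 below 0. Over all named probes outside the stage's own list, 53.7% were below 0 at 24 hpf and 50.8% at 30 hpf. slc4a1a is the anion exchanger that is the main membrane protein of red cells. All 3 of its probes were above 0 on every 48 hpf array, as the alpha globin probes were. All 3 had been chosen at both 24 hpf, with means of -2.49 to -3.15, and 30 hpf, with means of -0.83 to -1.57. Their low values at those stages were thus fixed by the choice. At 48 hpf probe A_15_P194071 had 0.64, 0.79 and 1.74, probe A_15_P119878 had 0.24, 1.26 and 1.18, and probe A_15_P187196 had 1.03, 1.04 and 1.76. All 9 values were above 0, with means of 1.06 ± 0.60, 0.89 ± 0.57 and 1.28 ± 0.42 (SD, n = 3, adjusted p = 0.834, 0.834 and 0.773 in limma). Of all 336 probes in the 24 and 30 hpf lists only, 36.0% were above 0 on every 48 hpf array. Under the limit of 10 probes per value, 51.3% of 152 were. The lowest slc4a1a ratios were at 24 hpf, whereas the lowest globin ratios were at 30 hpf.

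No other gene of that list reached such values at 48 hpf. cahz, the carbonic anhydrase of red cells, had means of 0.25 ± 0.15 and 0.46 ± 0.48 with its probes at 48 hpf (SD, n = 3). At 24 hpf these probes lay on opposite sides of 0, with means of 0.40 ± 0.26 and -0.31 ± 0.30 (SD, n = 2, adjusted p = 0.702 and 0.831 in limma). aqp3a, a water and glycerol channel chosen at 24 and 30 hpf as the alpha globins were, had -0.22, -0.37 and 0.05 at 48 hpf, with no array as high as those of the alpha globins. nt5c3a, a nucleotidase known from human red cells, had -0.97, 0.03 and -0.53 at 48 hpf (adjusted p = 0.854), and add1, the membrane skeleton protein adducin, had -0.35 and -1.26 at 30 hpf (adjusted p = 0.691). tmod4, a tropomodulin of muscle that the list also holds, had a 48 hpf mean of -0.21 ± 0.14 (SD, n = 3).

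Of the 47 erythroid regulators, 10 were named, and none had a probe under the limit of 10 probes per value. Their medians at 24, 30 and 48 hpf were 0.04, -0.39 and 0.01, of which those at 24 and 30 hpf turned sign when an array was left out (-0.10 without 24 hpf replicate 1, and 0.03 and 0.21 without either 30 hpf array). klf1, a factor needed for globin transcription, was chosen at 30 hpf and had a mean of 0.03 ± 0.14 at 24 hpf (SD, n = 2) and 0.01 ± 0.41 at 48 hpf (SD, n = 3), with values shared by up to 129 probes. Its means outside 30 hpf were thus at about 0. bcl11aa, whose human relative BCL11A represses fetal globin genes, had 0.98, 0.27 and 2.20 at 48 hpf (adjusted p = 0.834).

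**Figure D4:**
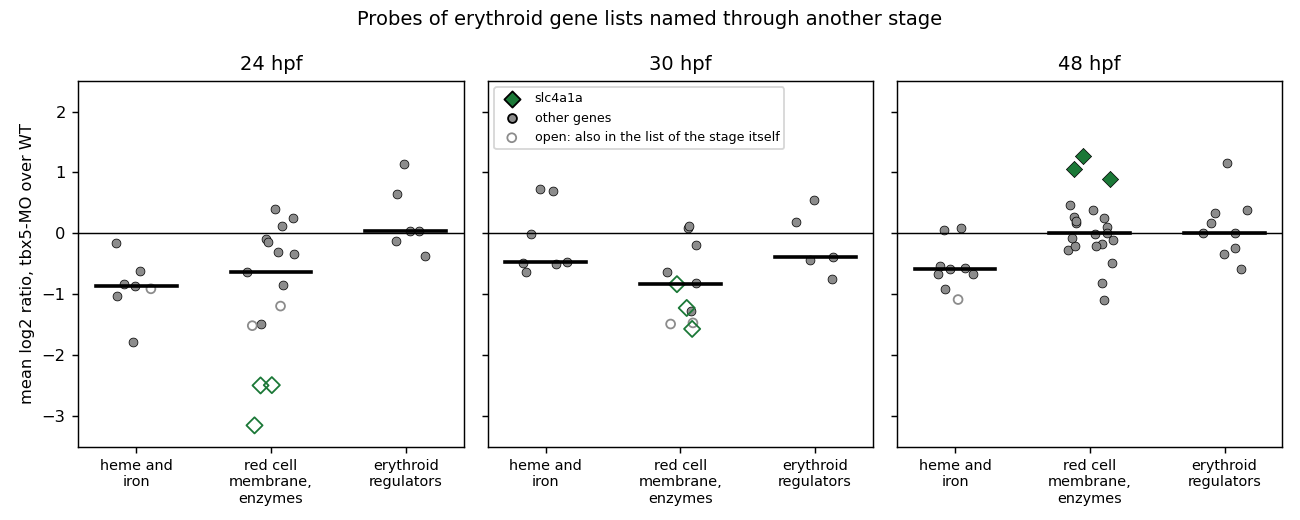
Mean log2 ratio of tbx5-MO over WT (vertical axis) for each probe named through another stage's list, in 3 erythroid gene lists (horizontal axis) at 24, 30 and 48 hpf. Black bars are medians over all points, open symbols are probes also in the list of the stage itself, and green diamonds are the slc4a1a probes, whose means are -3.15 to -2.49 at 24 hpf and 0.89 to 1.28 at 48 hpf. Points are spread sideways only to separate them.

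Lists of other cells of the embryo were described in the same way. The medians of other blood cells were 0.26, -0.18 and -0.14 at 24, 30 and 48 hpf over 4, 5 and 5 probes, of endothelium 0.10, 0.23 and -0.27 over 3, 4 and 7 probes, and of heart muscle -0.24, -0.16 and 0.11 over 8, 4 and 6 probes. Among the named genes were cebpb and cebpa, factors of myeloid cells, at -0.71 ± 0.56 and -0.44 ± 0.26 at 48 hpf, and flt4, a receptor of vessel and lymphatic endothelium, at -0.62 ± 0.50 (SD, n = 3). notch1b had a mean of 0.17 ± 0.18 at 30 hpf, and tbx2b and gata5, transcription factors of the heart, had -0.93 ± 0.64 and 0.85 ± 0.29 (SD, n = 2). smyd1b and gata6 had -1.48 ± 1.40 and -0.34 ± 1.30 at 24 hpf (SD, n = 2), with a wide gap between the arrays. None passed the test (adjusted p = 0.354 to 0.970 in limma). The part of other cell types in the globin values was not tested.

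Among 1626 named probes under the same limit on dim spots, those closest to the mean globin profile over the 7 arrays are named here, with no test of what they share. The profile averages alpha and beta probes, which had opposite signs at 48 hpf for hbbe3. Closeness was the root mean square difference of log2 ratios, and Pearson's r over the same 7 arrays is given as a description. actn3a, a muscle actinin, differed by 0.34 (r = 0.97), tpma, a muscle tropomyosin, by 0.34 (r = 0.99), smyd1a, a methyltransferase of muscle, by 0.36 (r = 0.98), mylpfb, a fast muscle myosin light chain, by 0.37 (r = 0.98) and the transcription factor sox11a by 0.42 (r = 0.95). tpma had stage means of -1.03, -2.53 and 1.00 at 24, 30 and 48 hpf, the same order of stages as the alpha globins. Against the mean of the alpha probes alone, the closest were si:dkey-266f7.4 at 0.19, nrxn1a, a neurexin of synapses, at 0.27, c1qtnf9 at 0.36, tnk2b at 0.40 and nme2b.2, a nucleoside diphosphate kinase, at 0.43. All of these points share the arrays and their normalization. The genes named as closest were in the 24 and 30 hpf lists or in the 30 hpf list, as the globins were. Low values at those stages were thus fixed by the choice on both sides, so closeness and r are partly set by it.

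The other oxygen-binding globins that the lists named had other patterns. cygb1, a cytoglobin chosen at 24 hpf, had 0.0028 and -0.18 at 30 hpf and -0.33, -0.10 and -0.65 at 48 hpf. It was thus below 0 on each 48 hpf array, unlike the alpha globins. mb, the oxygen-binding myoglobin, chosen at 24 hpf, had -0.89 and -0.23 at 30 hpf and -0.08, -3.17 and -0.50 at 48 hpf, with values shared by up to 67 probes.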

How the data were processed

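Per the study's methods, the arrays were scanned with a GenePix scanner and analysed in GeneSpring GX. The authors deposited normalized log2 ratios, 1 for each probe on each array, whose direction (Cy5, the morphants, over Cy3, WT) comes from the dyes in the labels, and for each stage a list of lower probes with log2 ratios and gene names. How the normalization was done, whether background was corrected and which genome build was used is not stated, and spot intensities were not used. Of the 6740 listed probes, 6662 were matched by their values to 1 row of the value table, and 37001 rows stayed without a name. Of the 4317 listed probes with a symbol, 3962 were matched to reference genes by Entrez number.

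Stage means were fitted with limma 3.58.1 (R 4.3.3) to the 43663 probes on 7 arrays, with 1 shared spread per probe, moderated over probes, and each mean was tested against 0 (two-sided, Benjamini-Hochberg over all probes, threshold 0.05). The number of arrays limits the precision. A globin probe was tested only at stages whose list had not chosen it. The members and the gene lists were chosen with earlier results of these data known. The genes named were all placed globin probes, up to 4 genes of each list with the largest stage mean at a stage whose list did not name them, among probes sharing no value with more than 10 probes of an array (the limit on dim spots), and the 5 genes closest to the mean globin profile. Named after their values were seen were urod, aqp3a, tmod4, klf1, bcl11aa, cygb1, mb, further slc4a1a and cahz probes, and the genes closest to the alpha profile. Alternatives were median centring, scaling, each stage alone, robust moderation, blocks by replicate number and batch, averaged probes, limits on dim probes, another fold, and each array left out. The fits were tested on simulated data with independent normal noise. Such noise lacks the shared values of these arrays, so that test cannot show how well the fits do here. A planned search for promoter motifs was not run. The 24 hpf list gives its second array the number 3, which no sample title has. The value table's column for the sample titled 24-2 holds the same values, so that array is called replicate 2 here. Figures were drawn with matplotlib 3.10.9.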

Additional observations from a re-analysis of the deposited data

Results flagged for a closer look

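For the alpha probes and hbbe2, every 48 hpf array was above 0 and every array of the earlier stages was below 0. The 48 hpf mean exceeded the 30 hpf mean by 3.55 for hbae1.1, by 3.88 for hbae3 probe A_15_P206756, by 3.67 for hbae3 probe A_15_P212056 and by 3.11 for hbbe2, on the log2 scale. It exceeded the 24 hpf mean by 2.37 for hbae1.1, by 3.33 for hbae3 probe A_15_P206756, by 3.03 for hbae3 probe A_15_P212056 and by 1.59 for hbbe2. The last was tested and did not pass (adjusted p = 0.599 in limma). The other differences were not tested, because the probes had been chosen for low values at the earlier stage. As 30 and 48 hpf shared no batch, stage and batch cannot be told apart between them. Of all probes in the 24 and 30 hpf lists only, 36.0% were above 0 on every 48 hpf array (51.3% under the limit of 10 probes per value). In the 30 hpf list only, 21.5% were (24.9% under that limit). The hbbe3 probes had no such pair of stages.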

How the results depend on the processing

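Over 16 alternatives and 18 values (6 globin probes at 3 stages), 265 of 282 settings kept the direction and the side of the threshold, or a mean within the spread between arrays. Many of these were fixed in advance, so the tally is no measure of stability. A stage mean cannot change with the stage fitted alone, robust moderation, limits on dim probes or an array of another stage left out. Where a probe had been chosen, its sign could not turn with an array left out. The direction turned once, for hbbe3 probe A_15_P211801 at 24 hpf (from -1.18 to 0.055 with an array left out). The median of the alpha probes at 24 hpf (-1.09) was -0.94 with arrays scaled to 1 median absolute deviation, -1.249 with probes of a gene averaged, and -1.251 to -1.09 with an array left out. That of the beta probes at 48 hpf (-0.45) was 0.30 with probes averaged, since hbbe2 and hbbe3 then weigh equally. Globin probes at least 1.5-fold lower on every array numbered 3 to 5 at 24 hpf with an array left out. The 3 alpha probes were among them by choice, and on replicate 1 alone 25.4% of all probes were past that limit. With a looser fold limit 1 globin probe instead of 0 was lower at 48 hpf. The share of all probes under that limit is not given here, so this count is only a description.

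The number of probes called at 24 hpf, 14, was 9 with scaled arrays, 0 with the stage fitted alone, 2054 with the batch as a block, 190 with values found at most 10 times, 0 with values found once and the stage alone, and 1 to 1570 with an array left out. At 30 hpf, 3 probes became 1, 0, 332, 10, 630 and 0 to 402 under these settings. At 48 hpf, 0 probes became 560 with the batch as a block. With values found at most 10 times 99 were called (1.42% of 6963), with 3 globin probes. With values found once and the stage alone 1328 were called (28.6% of 4646), with 5 globin probes. Of these, the alpha probes and hbbe2 were higher and 1 hbbe3 probe was lower. hbbe2 was in that fit because only the 48 hpf arrays, where it was high, had to have unique values. The cause of these changes in the number called was not tested. With the replicate number as a block, 0 probes were called at each stage (adjusted p = 0.494 to 0.989 for the globins at 48 hpf). Deviations of same-numbered arrays from their stage means correlated at -0.01 to 0.02 across probes. This cannot decide whether such arrays share more than a number, since even arrays of one stage correlated at only 0.07 to 0.14 over all probes. Between 24 and 30 hpf, the values for same and different numbers were also mirror images by construction (0.02 and -0.02).

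The red cell membrane list, with values found at most 10 times, had medians of -1.19 at 24 hpf, -1.22 at 30 hpf and -0.099 at 48 hpf. Those at 24 and 30 hpf were the values of probes in the stage's own list, tmod4 and slc4a1a probe A_15_P194071. Low values of these probes were fixed by the choice, so the medians do not show that the limit deepened the decrease. Without the probes of the stage's own list, chosen after seeing the data, its medians with no limit on shared values were -0.23 at 24 hpf and -0.41 at 30 hpf. Of the other lists only the heme list held such probes, and its medians were -0.85 at 24 hpf and -0.58 at 48 hpf without them. The remaining lists could not change. With an array left out the red cell membrane list ranged from -1.23 to -0.80 at 30 hpf and from -0.028 to 0.22 at 48 hpf. The heme list ranged from -0.45 to -0.015 at 30 hpf, and the erythroid regulators from -0.099 to 0.013 at 24 hpf and from 0.033 to 0.21 at 30 hpf. No regulator was left with values found at most 10 times.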
